A study of Mus musculus with 6 samples.

Results

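Dbp, Tef, Hlf, Nfil3, Nr1d1, Nr1d2, Rora, Bhlhe40, Bhlhe41 and Usp2 are 10 genes that act around the core of the circadian clock, as its outputs or in the second feedback loop. They were chosen by name, with earlier results of these arrays known, so the choice was not independent of the data. All 10 were found among the 30142 genes that had an array feature with a single gene symbol. For a gene with more than 1 feature, the brightest on average over the 6 arrays was taken. Rora was the only one of the 10 with several features.

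The arrays measured RNA of the soleus, a slow muscle of the calf, from male mice aged 39 to 41 weeks. The 3 Control mice were labelled wild type and, by the series title, were littermates of the others. The 3 cKO mice were labelled as knockouts of Mbtps1 by DMP1 Cre, a recombinase under regulatory sequence of Dmp1, a gene known for osteocytes, the cells embedded in bone. Mbtps1 encodes site-1 protease, which activates membrane-bound transcription factors in the Golgi. Each mouse gave 1 array, and the labels do not say whether the Control mice carried Cre or a floxed allele. The time of day at killing is not given in the sources used here. Mouse numbers fell in 2 ranges, a low one with Control 1 (mouse 715), Control 2 (716) and cKO 1 (733), and a high one with Control 3 (776), cKO 2 (779) and cKO 3 (780). What the ranges stand for was not stated.

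In the core of the clock, CLOCK and BMAL1 (the product of Arntl) bind E-box sequences and switch on genes for their own repressors, PER and CRY. In the second loop, the REV-ERB receptors (Nr1d1, Nr1d2) repress Arntl through a response element that ROR receptors such as RORA use to activate it. The PAR bZIP factors (Dbp, Tef, Hlf) activate genes through D-box sequences, and NFIL3 represses through the same sequences. The DEC proteins (Bhlhe40, Bhlhe41) compete at E-boxes, and Usp2 encodes a deubiquitinase with a strongly rhythmic transcript in many tissues. Most of these transcripts swing over the day, skeletal muscle included.

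The letters of these sequences were looked for in the 250 bases before each RefSeq gene start (GRCm38.p6), on both strands. The table held 10 windows for 9 of the genes, Tef having a pair of starts, and none for Bhlhe40. An E-box (CACGTG) stood in the Bhlhe41 window and in both Tef windows, and in 6.02% of all 32851 windows. The REV-ERB and ROR element, searched as TAGGTCA and TGGGTCA, was found as TAGGTCA on the other strand in the Nfil3 window, 6 to 12 bases before the start. Those letters were in 2.23% and 3.24% of all windows. A cyclic AMP response element (TGACGTCA) lay 2 to 9 bases before the start of Hlf, against 1.55% of all windows. The D-box letters TTATGTAA and TTACGTAA, in 0.819% and 0.113% of all windows, were in none of the 10. None of these motifs contains another of them. The windows of Dbp, Nr1d1, Nr1d2, Rora and Usp2 held none of the letters searched, which says nothing of sites elsewhere in those genes. The windows with an E-box, and that of Nfil3 with the element its repressors bind, are shown 5′ to 3′ on the gene's strand, with the motif in capitals. They are chr6:145865421-145865670 (minus strand) for Bhlhe41, chr15:81802423-81802672 and chr15:81811164-81811413 (plus strand) for Tef, and chr13:52981040-52981289 (minus strand) for Nfil3.
Bhlhe41: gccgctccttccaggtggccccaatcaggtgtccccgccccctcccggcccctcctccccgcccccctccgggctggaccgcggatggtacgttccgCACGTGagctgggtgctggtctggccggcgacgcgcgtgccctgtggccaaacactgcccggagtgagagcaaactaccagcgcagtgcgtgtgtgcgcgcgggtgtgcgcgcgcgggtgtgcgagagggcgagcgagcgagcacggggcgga
Tef, upstream start: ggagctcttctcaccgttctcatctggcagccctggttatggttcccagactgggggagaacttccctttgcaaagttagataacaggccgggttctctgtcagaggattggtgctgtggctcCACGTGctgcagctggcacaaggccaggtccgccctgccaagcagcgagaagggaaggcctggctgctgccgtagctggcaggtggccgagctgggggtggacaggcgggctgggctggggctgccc
Tef, downstream start: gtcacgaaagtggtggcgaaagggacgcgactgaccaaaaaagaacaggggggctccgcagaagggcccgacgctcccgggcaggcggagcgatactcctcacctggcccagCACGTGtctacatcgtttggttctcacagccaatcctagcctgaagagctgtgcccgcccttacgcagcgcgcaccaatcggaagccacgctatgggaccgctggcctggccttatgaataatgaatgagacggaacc
Nfil3: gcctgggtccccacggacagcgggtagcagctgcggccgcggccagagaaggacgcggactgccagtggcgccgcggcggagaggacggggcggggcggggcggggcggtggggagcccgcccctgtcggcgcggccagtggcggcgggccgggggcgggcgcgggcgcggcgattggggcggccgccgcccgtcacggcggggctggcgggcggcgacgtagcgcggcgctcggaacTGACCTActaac

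Values are log2 signals as the authors deposited them, and a difference is cKO minus Control, fitted with limma. Of 33334 features bright enough to be tested, 0 (0%) were called by limma at a Benjamini-Hochberg adjusted p of 0.05. An unadjusted p under 0.05 was found for 1501, or 4.50%. The adjusted p of every member was 0.999. Unadjusted p-values are therefore given as a description of each gene beside its spread, and not as calls. The arrays correlated between 0.970 and 0.995 over these features, and their median difference of 0.07 log2 units became -0.0038 on quantile-normalized values. Mbtps1 itself read 7.39, 7.05 and 7.24 on the Control arrays and 7.77, 7.44 and 7.11 on the cKO arrays (each in the order 1 to 3, as throughout), so the groups overlapped. Which exons its feature covers was not stated, and whole soleus need not show a loss in Dmp1-expressing cells, so this level does not check the labels. Slow fibre markers were bright, with list means of 17.27 to 17.42, though Myl2 read 10.29 to 10.42. Fast fibre markers had list means of 15.23 to 17.46, so these levels do not by themselves identify the muscle. Of 5 osteocyte markers, Dmp1, Sost, Phex and Mepe were below the brightness filter. Bglap passed it at 3.89 to 4.42, near the array medians.

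Among the 10 genes, 8 had a higher mean in cKO soleus and 2, Rora and Nfil3, a lower one, against 65.8% higher over all features tested. For 6 of them, Dbp, Hlf, Nr1d2, Bhlhe40, Bhlhe41 and Usp2, all 3 cKO arrays lay above all 3 Control arrays, as for 8.95% of all features, and none had the reverse pattern (2.05%). Those with an unadjusted p under 0.05 were Dbp, Usp2, Bhlhe41, Bhlhe40 and Nr1d2, all higher in cKO, so 5 of 10 where 3.70% of features had one in that direction. Since the genes were chosen with results known, these shares describe them and nothing is read from the contrast. In the other direction the count was 0 of 10, against 0.807%. The median difference of the 10 genes was 0.80 log2 units. By quantile-normalized values the separated set had 5 genes, with Tef in it and with Hlf and Nr1d2 out.

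**Figure D1:**
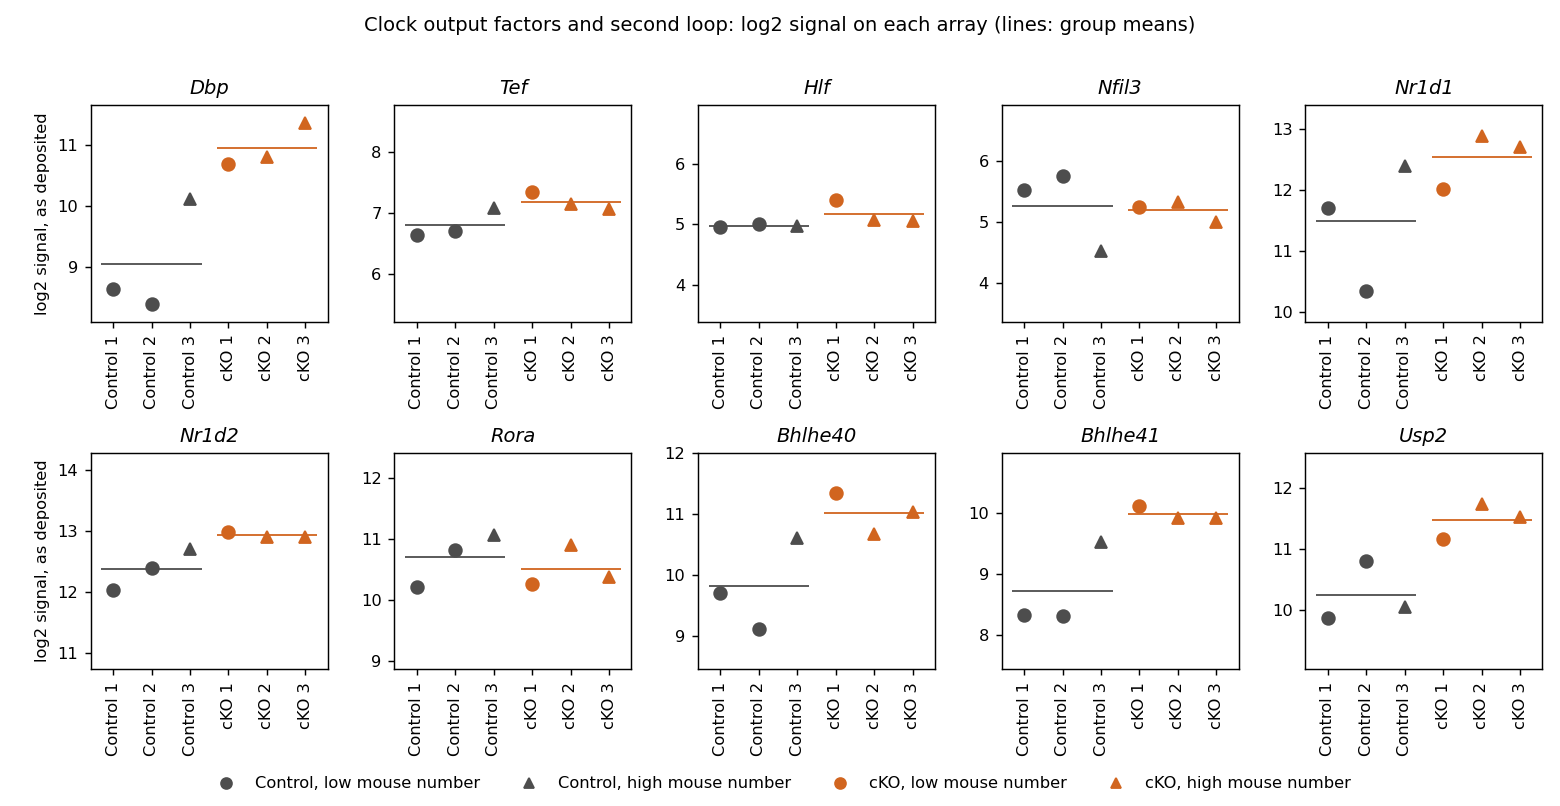
Log2 signal of each of the 10 genes (y axis, the same span in every panel) on each array (x axis), grey for Control and orange for cKO, circles for low and triangles for high mouse numbers, with lines at group means. On these values as deposited, Dbp, Bhlhe41 and Usp2 lie above Control on every cKO array, by 0.57, 0.39 and 0.36 at the closest. Tef, Nfil3, Nr1d1 and Rora overlap. After median centring the closest margins of Dbp, Bhlhe41 and Usp2 are 0.28, 0.29 and 0.02.

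Dbp, the albumin D-box binding protein and the PAR bZIP factor best known as a clock output, had the largest difference of the 10. The Control arrays read 8.63, 8.39 and 10.11 and the cKO arrays 10.68, 10.80 and 11.35. Control 3 lay nearer to the cKO arrays than to the other Control arrays, and the groups did not overlap. The means were 9.05 ± 0.93 (SD, n = 3) and 10.95 ± 0.36 (SD, n = 3), a difference of 1.90 log2 units (SE 0.47), or 3.73-fold. Its unadjusted p was 0.00563 and its 95% interval ran from 0.77 to 3.03. A difference at least as large was found in 0.051% of all features tested. The low mouse numbers alone gave 2.17 and the high ones 0.97.

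Tef and Hlf, the other PAR bZIP genes, had smaller differences. Tef, known as thyrotroph embryonic factor, read 6.64, 6.71 and 7.09 on the Control arrays and 7.35, 7.15 and 7.07 on the cKO arrays. The highest Control array, again Control 3, lay just above cKO 3, so the groups overlapped. The difference was 0.38 log2 units (SE 0.18, unadjusted p = 0.078 in limma, 95% interval -0.06 to 0.81). It was 0.68 in the low numbers and 0.02 in the high ones. The low-number value rests on cKO 1, the array with the highest median. Median-centred Tef values were 2.51, 2.68 and 3.02 on the Control arrays and 2.98, 3.12 and 3.06 on the cKO arrays, with cKO 1 below Control 3. Hlf, hepatic leukemia factor, was dim, with Control at 4.96, 5.0 and 4.97 and cKO at 5.40, 5.08 and 5.05, where array medians were 4.0 to 4.37. All cKO arrays lay above Control, but by as little as 0.05. Its difference of 0.20 (SE 0.14, unadjusted p = 0.192, 95% interval -0.13 to 0.53) was 0.0887 without cKO 1, the array with the highest median. At this brightness a change in Hlf of the size seen for Tef lay inside the interval.

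Nfil3, the repressor that shares the D-box with these activators, showed no common direction. The Control arrays read 5.53, 5.76 and 4.52 and the cKO arrays 5.25, 5.33 and 5.0. Control 3 was the lowest of all arrays and Control 2 the highest, so the cKO arrays lay between Control arrays. Control averaged 5.27 ± 0.66 (SD, n = 3) and cKO 5.19 ± 0.17 (SD, n = 3). The difference of -0.08 (SE 0.32, unadjusted p = 0.812) had a 95% interval from -0.85 to 0.69. The low mouse numbers gave -0.40, and the high ones 0.64. Leaving out Control 3 gave -0.45, and leaving out Control 2 gave 0.16.

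Nr1d1 and Nr1d2 encode REV-ERB alpha and REV-ERB beta, receptors that bind heme and repress through a corepressor complex with HDAC3. Nr1d1 read 11.71, 10.34 and 12.40 on the Control arrays and 12.02, 12.89 and 12.71 on the cKO arrays. Control 2 stood well below all other arrays, and Control 3 lay above cKO 1. The difference was 1.06 log2 units (SE 0.54, unadjusted p = 0.093, 95% interval -0.23 to 2.34), and 0.48 without Control 2. Nr1d2 read 12.04, 12.40 and 12.71 on the Control arrays and 12.98, 12.91 and 12.91 on the cKO arrays. The cKO arrays were close together (SD 0.04) and above the whole of a wider Control group (SD 0.34). The Nr1d2 difference was 0.55 (SE 0.23, unadjusted p = 0.0458). After quantile normalization it was 0.45 with Control 3 just above cKO 1, so the separation depended on the scaling. Both genes had smaller differences within the high numbers, 0.40 for Nr1d1 and 0.20 for Nr1d2, than within the low ones, 0.99 and 0.76.

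Rora encodes the receptor that activates where REV-ERB represses. Its brightest feature, the one the rule took, read 10.21, 10.82 and 11.06 on the Control arrays and 10.26, 10.89 and 10.38 on the cKO arrays, and the groups overlapped. The difference was -0.19 log2 units (SE 0.30, unadjusted p = 0.547, 95% interval -0.89 to 0.52). The identifier of this feature marks it as unmapped, and Rora had 2 more features. The mapped one, at 8.05, 8.44 and 8.65 in Control and 8.56, 8.53 and 8.30 in cKO, differed by 0.09 (SE 0.21), and the other unmapped one by -0.28 (SE 0.21). The 3 features thus did not share a sign, and none had an unadjusted p under 0.05. With array weights, which were 4.01 for cKO 2 and 0.254 for cKO 1, the brightest feature differed by 0.19. Rorb, which encodes another ROR receptor, was near the array medians at 3.92 to 4.31. This was the brighter of 2 Rorb features, and its identifier too marks it as unmapped.

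Bhlhe40 and Bhlhe41 encode DEC1 and DEC2, basic helix-loop-helix repressors that also respond to hypoxia and other stimuli. Bhlhe41 read 8.33, 8.32 and 9.53 on the Control arrays and 10.12, 9.92 and 9.93 on the cKO arrays. Control 1 and Control 2 were almost equal, the cKO arrays were close together, and Control 3 stood between. The difference was 1.26 log2 units (SE 0.35, unadjusted p = 0.00968), or 2.40-fold, with a 95% interval from 0.42 to 2.10. Bhlhe40 read 9.70, 9.11 and 10.61 on the Control arrays and 11.34, 10.66 and 11.03 on the cKO arrays. Control 3 and cKO 2, both high-numbered, were only 0.05 apart. Its difference of 1.20 (SE 0.40, unadjusted p = 0.0217, 95% interval 0.24 to 2.17) came to 1.94 in the low numbers against 0.24 in the high ones. For Bhlhe41 these were 1.79 and 0.39.

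Usp2, the deubiquitinase gene, had another order among the Control arrays. The Control arrays read 9.87, 10.80 and 10.05 and the cKO arrays 11.16, 11.73 and 11.52. Here Control 2, not Control 3, was the Control array nearest to cKO, and the groups did not overlap. The closest margin, cKO 1 over Control 2, was 0.36 as deposited and 0.23 after quantile normalization. After median centring it was only 0.02, so the width of the separation depended on the scaling. The means were 10.24 ± 0.49 (SD, n = 3) and 11.47 ± 0.29 (SD, n = 3), a difference of 1.23 log2 units (SE 0.30, unadjusted p = 0.00528), or 2.35-fold. Its 95% interval ran from 0.51 to 1.95. Among the genes with a higher mean in cKO it alone had a larger difference within the high mouse numbers, 1.57, than within the low ones, 0.82.

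**Figure D2:**
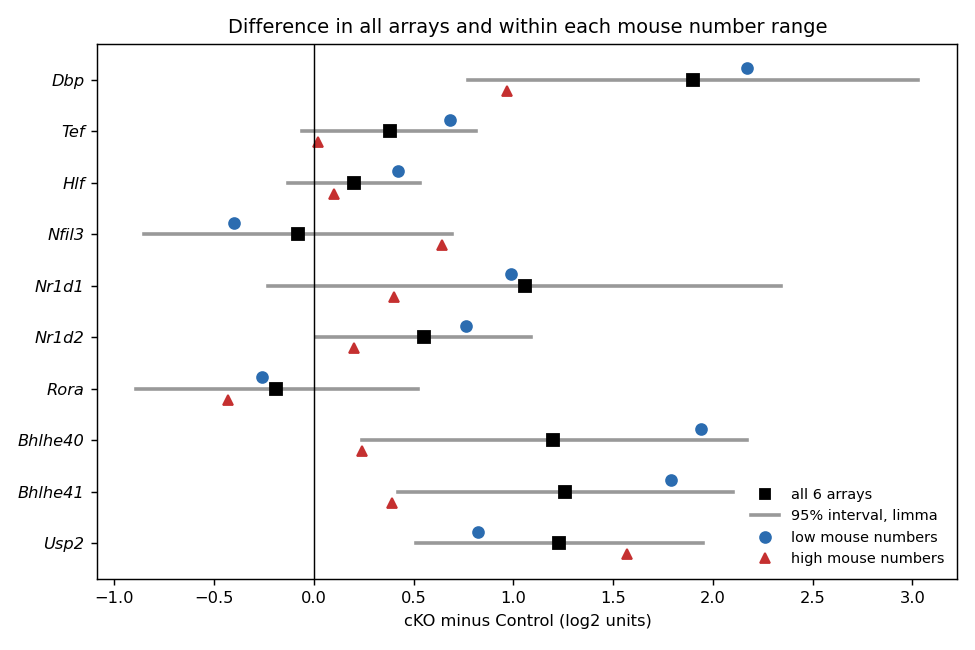
Difference between cKO and Control in log2 units (x axis) for each gene (y axis), as black squares with the 95% interval of the limma fit over all 6 arrays, beside the difference within the low (blue circles) and the high (red triangles) mouse numbers. Dbp is 2.17 and 0.97 in the 2 ranges, Bhlhe40 is 1.94 and 0.24, and Nfil3 changes sign, from -0.40 to 0.64.

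The size of most differences moved with Control 3. It was the highest Control array for 7 genes (Dbp, Tef, Nr1d1, Nr1d2, Rora, Bhlhe40 and Bhlhe41) and the lowest for 1 (Nfil3), while it was the highest Control array for 40.9% of all features. All 8 genes with a higher mean in cKO were higher in both number ranges. A term for how much the cKO minus Control difference changed from the low to the high range was fitted with limma. It was added after the values were seen. For Bhlhe41 it was -1.40 (SE 0.27, unadjusted p = 0.00543, adjusted p = 0.238), for Bhlhe40 -1.70 (SE 0.50, unadjusted p = 0.0247, adjusted p = 0.258), and for Tef -0.66 (SE 0.23, unadjusted p = 0.0433, adjusted p = 0.280). For Nfil3 it was 1.04 (SE 0.30, unadjusted p = 0.0227, adjusted p = 0.253). No feature passed the adjusted threshold for this term in limma, and 17.2% had an unadjusted p under 0.05, beside 4 of the 10 genes. Each range holds only 1 array of one genotype, so Control 3 and the range cannot be told apart here. In the low range that array is cKO 1, which had the highest median of all arrays, 4.37. The term was fitted on values as deposited, so an offset of cKO 1 enters it too.

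With Control 3 left out, the differences grew to 2.43 for Dbp, 1.66 for Bhlhe41, 1.60 for Bhlhe40, 1.51 for Nr1d1, 0.72 for Nr1d2 and 0.52 for Tef. All 6 of these genes and Usp2, at 1.14, then had an unadjusted p under 0.05, and so did Nfil3 at -0.45. The smallest adjusted p of a member over all alternatives, 0.103 for Dbp, came from the same 5 arrays. Leaving out Control 1 or Control 2, cKO 1 or cKO 3 left 3 genes with an unadjusted p under 0.05, and in each of these cases they were Dbp, Bhlhe41 and Usp2. Without cKO 2 these 3 and Bhlhe40 had one. Dbp, Bhlhe41 and Usp2 had an unadjusted p under 0.05 in all 15 alternatives that gave one, Bhlhe40 in 10 and Nr1d2 in 5.

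**Figure D3:**
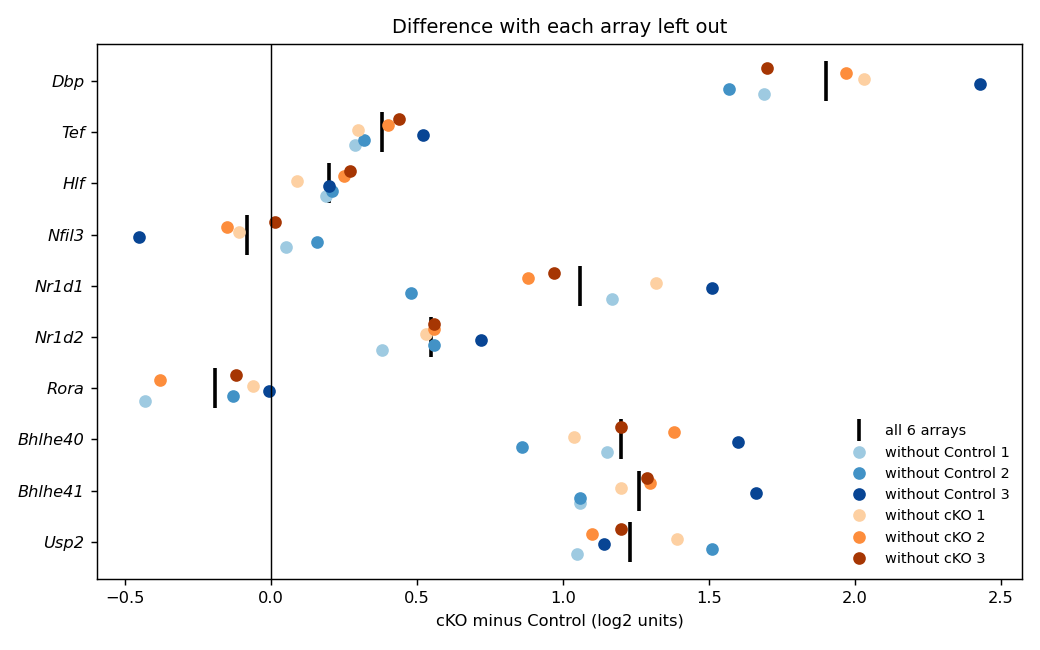
Difference between cKO and Control in log2 units (x axis) for each gene (y axis) over all 6 arrays (black bar) and with each array left out (points, blue shades for Control and orange shades for cKO). The darkest blue point, without Control 3, lies farthest to the right for 7 of the 10 genes, and the points of Nfil3, from -0.45 to 0.16, fall on both sides of 0.

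The core genes that drive and oppose these outputs are given for comparison. Of 4 core activators, 3 (Arntl, Clock and Npas2) were lower on all cKO arrays, by -1.73 (SE 0.25), -0.58 (SE 0.19) and -0.27 (SE 0.14), and Arntl2, at 0.06 (SE 0.12), had a sign that turned on quantile normalization and median centring. Of 5 measured core repressors, Per1, Per2 and Cry2 were higher on all cKO arrays, by 1.38 (SE 0.40), 1.23 (SE 0.18) and 0.87 (SE 0.17). Per3 differed by 0.58 (SE 0.27), and Cry1 by 0.09 (SE 0.19) with a sign that turned on quantile normalization. An unadjusted p under 0.05 in limma was found for 2 activators (lower) and 3 repressors (higher), and no adjusted p passed. Over all features tested 0.807% had one with a lower and 3.70% with a higher mean, shares that stand beside the lists below too. Per3 resembled Dbp and Bhlhe40 in its Control arrays, at 5.69, 5.58 and 6.56 against 6.48, 6.43 and 6.65 in cKO. Arntl did not: Control 3, at 9.77, lay between Control 1 at 10.12 and Control 2 at 9.73, and all cKO arrays were at 8.55 or lower. For Arntl the low numbers gave -1.37 and the high ones -1.83.

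Enzymes that modify clock proteins, and the corepressors of REV-ERB, were measured beside the outputs. Of 6 kinase and ubiquitin ligase genes tested, 5 were higher in cKO, and Csnk1d at 0.49 (SE 0.19), Fbxw11 at 0.47 (SE 0.17) and Csnk1e at 0.37 (SE 0.14) had an unadjusted p under 0.05. After quantile normalization the count of 3 was 0. Casein kinase 1 delta and epsilon phosphorylate PER proteins, and Fbxw11 encodes a ubiquitin ligase adaptor that binds them. Of 3 corepressor genes tested, Gps2 differed by 0.41 (SE 0.15), Hdac3 by 0.02 (SE 0.18) and Tbl1xr1 by -0.21 (SE 0.17). Gps2 alone of these had an unadjusted p under 0.05, a count of 1 that was 0 after quantile normalization, and Hdac3 turned sign there.

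Genes known as rhythmic or as targets of these factors were mostly a little higher. Of 15 tested, 13 had a higher mean in cKO, with a median difference of 0.30, against 65.8% and 0.07 over all features. Those with an unadjusted p under 0.05 were the myogenic factor Myod1, at 0.59 (SE 0.17), and the tetraspanin Tspan4, at 0.35 (SE 0.13), and after quantile normalization the count of 2 was 1. Coq10b, a coenzyme Q binding protein gene, differed by 0.60 (SE 0.31), with 1.25 in the low and 0.16 in the high numbers. Pdk4 and Tcap, with arrays between 18.2 and 19.6, came close to the ceiling of the scale, which could hide a difference. Glucocorticoids also drive some clock genes, so their targets were set beside: of 14, 11 were higher (8 after quantile normalization) with a median of 0.14. The metallothionein Mt2 differed by 3.77 (SE 1.06), the phosphatase Dusp1 by 1.28 (SE 0.34) and the ubiquitin ligase Fbxo32 by -0.61 (SE 0.22). Mt2 was uneven among the cKO arrays, at 9.30, 13.04 and 13.23, with a difference of 1.44 in the low and 4.58 in the high numbers. The widely used glucocorticoid markers Fkbp5 and Tsc22d3 differed by 0.06 (SE 0.16) and 0.18 (SE 0.27). Both were higher on cKO 1 than on its low-numbered Control arrays, by 0.37 and 0.70, and lower in the high numbers, by -0.12 and -0.13. Without cKO 1 their differences were -0.0949 and -0.0603, and that of Fkbp5 also turned sign on quantile normalization and median centring.

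**Figure D4:**
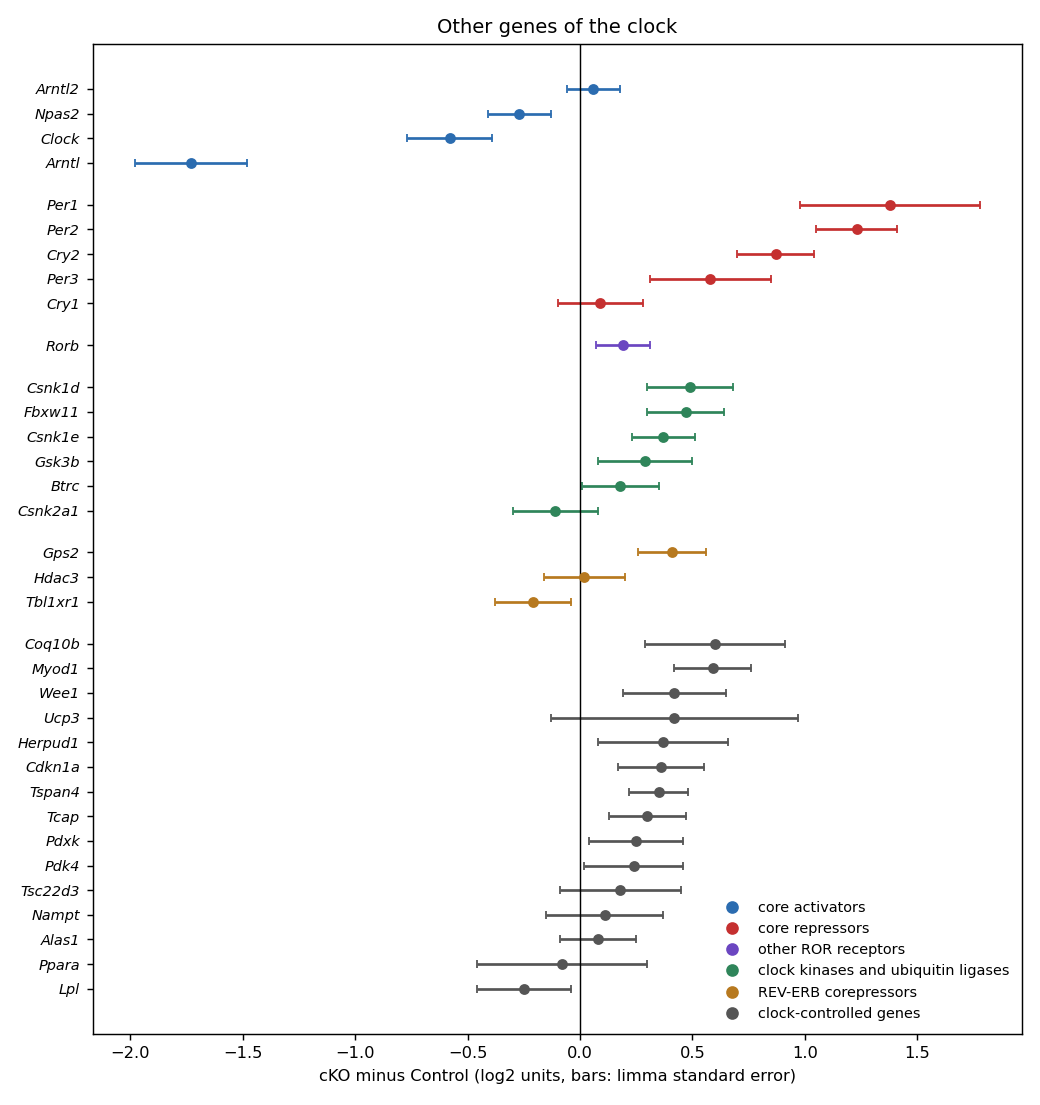
Difference between cKO and Control in log2 units (x axis, bars for the limma standard error) for the other clock genes tested (y axis), coloured by list. Arntl at -1.73 and Per1 at 1.38 are the extremes, and most clock-controlled genes lie between 0 and 0.60.

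Markers of tendon, another tissue that a dissected muscle can carry, moved with several of these genes. All 9 tested of 10 tendon markers had a higher mean in cKO (8 after quantile normalization), with a median difference of 1.27. For 6 of them all cKO arrays lay above all Control arrays, against 8.95% of all features. An unadjusted p under 0.05 in limma was found for 6, against 3.70% of features in that direction, though no adjusted p passed. These shares describe the list, which was chosen with results known. Fmod and Chad, which encode extracellular matrix proteins, differed by 1.68 (SE 0.39) and 1.97 (SE 0.36), Tnmd, a gene of tendon cells, by 1.27 (SE 0.32), and Angptl7, which encodes a secreted factor, by 2.20 (SE 0.35). Of the defining transcription factors of tendon cells, Mkx was below the filter, and Scx was at 5.44 to 5.77 in Control and 5.57 to 5.88 in cKO, a difference of 0.07 (SE 0.15) that turned sign on quantile normalization. The list averaged 5.56, 5.55 and 6.30 on the Control arrays and 6.80, 6.95 and 7.05 on the cKO arrays. Its summed signal, as log2, ran from 9.98 to 11.54 in Control and from 11.50 to 12.63 in cKO. Control 3 was the Control array nearest to cKO in this list, as it was for Dbp, Bhlhe40 and Bhlhe41, and its part in their differences was not tested. Fibroblast markers, with 2 of 4 higher, and fast fibre markers, with 4 of 8 higher, had overlapping groups, as did macrophage markers with 5 of 5 higher. Among the fast fibre markers, Actn3 (15.67), Myh4 (16.88) and Pvalb (11.87) were bright on cKO 2, where Control reached 11.27, 13.62 and 9.78. Tnni2 was not, at 16.16 against up to 16.32. Myh1, Tnnt3, Tnnc2 and Atp2a1, at 19.07 to 19.85, came close to the ceiling of the scale, which could hide a difference. Adipocyte markers were higher in 4 of 4 and endothelial markers lower in 5 of 5, and in their list means too the groups overlapped. By gene, the adipocyte markers Plin1, at 0.36 (SE 0.14), and Cidec, at 0.61 (SE 0.23), had all cKO arrays above all Control arrays. The endothelial marker Cldn5, at -0.45 (SE 0.19), had all of them below. In bulk muscle, fewer cells of a type and less RNA per cell cannot be told apart.

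**Figure D5:**
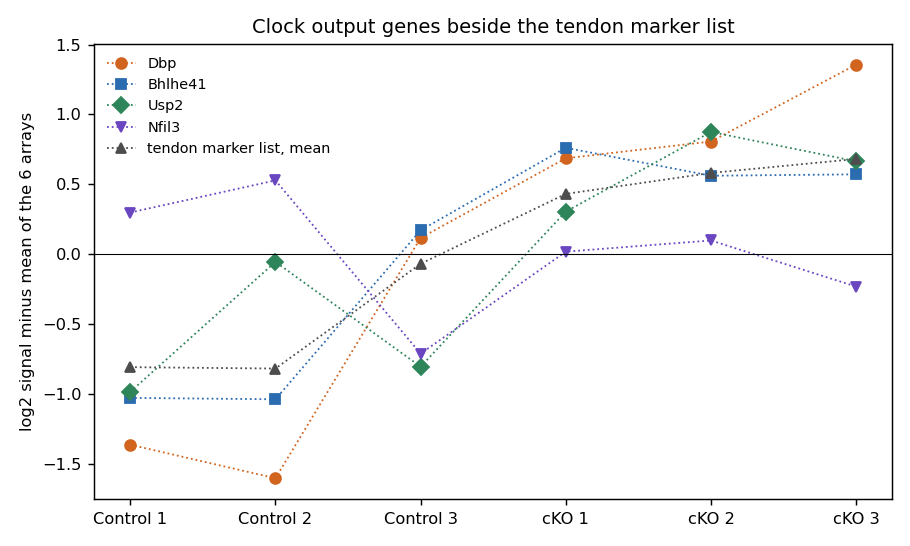
Log2 signal minus the mean of the 6 arrays (y axis) on each array (x axis) for Dbp, Bhlhe41, Usp2 and Nfil3 and for the mean of the tendon marker list; dotted lines only join the points of a series. Dbp, Bhlhe41 and the tendon list are lowest on Control 1 and Control 2 and intermediate on Control 3, whereas Usp2 is low on Control 3 and Nfil3 is lowest there.

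The features with the most similar pattern were sought over the 6 arrays among 5997 features with a single symbol and an SD of at least 0.3. For Dbp the nearest were Col12a1 (Pearson r = 0.996), a collagen of the tendon list, H2ac18 (0.995), a histone gene, and Atp6v0a1 (0.994), a subunit of the vacuolar proton pump. For Nr1d1 they were Ddo (0.977), Dot1l (0.975) and Mrtfb (0.969). For Nfil3 they were Gm5848 (0.973), Nme2 (0.972) and Rps19-ps4 (0.969). Col12a1 followed Dbp closely, reading 5.54, 5.46 and 6.22 on the Control arrays and 6.34, 6.42 and 6.75 on the cKO arrays. With 6 arrays in 2 groups, and so many features searched, these correlations describe only the order and spacing of the arrays.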

How the data were processed

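The authors deposited 1 value per feature and array, read here as log2 signal from the range of 1.92 to 19.93. Per the labels' protocols, 100 ng of total RNA was made into biotinylated cDNA for Affymetrix whole-transcript arrays. The background correction, summarisation, normalization and build behind them are not given in the sources used here. Of 72688 features, 6732 held no value. Symbols came from the platform annotation, updated through Entrez identifiers to RefSeq (GRCm38.p6) for 22818 of 30604 features with a single symbol, which changed 827 symbols. Some genes of the lists are not reported here.

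Features above their array's median on at least 3 arrays (33334) entered limma 3.58.1 under R 4.3.3. The fit was lmFit followed by eBayes(trend = TRUE), with two-sided p-values and Benjamini-Hochberg adjustment over all these features. The step was tested on simulated data. P-values measure the spread between mice, 1 array each, and the number of arrays limits the precision. The members and lists were chosen with earlier results of these data known. Named genes were the 10 members, the core clock genes, Rorb, the 3 genes with the smallest p in each other clock list and in the glucocorticoid list, and the 3 features nearest to Dbp, Nr1d1 and Nfil3. Tsc22d3, Fkbp5, Pdk4, Tcap, the tendon markers and the single markers of fibres and other cell types were named after their values were seen. Alternatives were not run for Pdk4, Tcap, Mbtps1 or the nearest features other than Col12a1. Nor were they run for the single markers of fibres and of cell types other than tendon, such as Plin1, Cidec, Cldn5 and Actn3. Alternatives were quantile normalization, median centring, other filters, eBayes without trend, array weights, blocks and each array left out. Figures used Python 3.11.15 and matplotlib 3.10.9.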

Additional observations from a re-analysis of the deposited data

Results flagged for a closer look

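For Nfil3, Cry1, Fkbp5 and Tsc22d3, cKO 1 lay to one side of both low-numbered Control arrays. In the high numbers cKO 2 and cKO 3 lay to the opposite side of Control 3. The pattern was looked for among 40 named genes. Its share over all features was not counted, and with so few arrays per range nothing is read from it. The Nfil3 difference (cKO minus Control) was -0.40 log2 units in the low and 0.64 in the high numbers. For Cry1, which encodes a core repressor, it was 0.45 and -0.08. For the glucocorticoid markers it was 0.37 and -0.12 (Fkbp5) and 0.70 and -0.13 (Tsc22d3). The low-number values rest on cKO 1 alone, whose array median was 4.37, against 4.132 on Control 1 and 4.025 on Control 2. In the high range the medians were 4.077 on Control 3, 4.033 on cKO 2 and 4.004 on cKO 3. These differences were not corrected for such offsets, and the share of the offsets in the changes of sign was not tested. On median-centred values Nfil3 kept both directions. The change of the cKO minus Control difference from the low to the high range, fitted in limma, was 1.04 for Nfil3 and -0.53 for Cry1. It was -0.49 for Fkbp5 and -0.82 for Tsc22d3. None of these terms passed the adjusted threshold.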

How the results depend on the processing

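No member passed an adjusted p of 0.05 in limma under any of the 16 alternatives run, an adjusted p of 0.10 included. Over all features 0 passed, except for 14 without Control 3. With an unadjusted p under 0.05 and a higher mean in cKO there were 5 members, 3 to 7 with an array left out, and 3 with quantile normalization and the mouse number range as a block together. With a lower mean there were 0, and 0 to 1 with an array left out. The count of separated members was 6, and 5 to 6 over the alternatives that kept all arrays. With an array left out it was 6 to 8, but removing an array cannot lower this count. Correlations of deviations between arrays of the same number were 0.128, -0.204 and 0.205. With 3 arrays per group these values cannot settle whether the numbers pair the mice, which the labels do not state. With the replicate block in limma 4 members had an unadjusted p under 0.05 and 0 passed the adjusted threshold. Of 605 differences under alternatives, over the 40 genes these were run for, 27 changed sign, in 8 genes. Nfil3 was 0.12 with the range block and -0.45 to 0.16 with an array left out, and Rora 0.19 with array weights. Arntl2 was -0.0117 after quantile normalization, -0.00296 after median centring, -0.0274 with array weights, -0.0318 when the range block joined quantile normalization, and -0.00317 to 0.10 with an array left out. Cry1 was -0.0521 after quantile normalization, -0.0387 with array weights and -0.0822 to 0.20 with an array left out. Hdac3 was -0.0365, -0.0368 and -0.021 under quantile normalization, median centring and array weights, and -0.0616 to 0.0772 with an array left out. Fkbp5 was -0.0384, -0.00288 and -0.0643 under those 3 settings and -0.0949 to 0.14 with an array left out. Tsc22d3 was -0.0603 to 0.30 with an array left out. Scx was -0.0249 after quantile normalization, -0.0652 with the range block added to it, and -0.0283 to 0.13 with an array left out. The causes were not tested. Of 240 counts in the other lists, 36 moved by over 1.5 times. Dim genes such as Hlf and Nfil3 lie close to the array medians, which limits what can be seen of them.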
